A study of Mus musculus with 24 samples.

Results

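The genes described here are 32 markers of the cells that build the vessels and membranes of the brain, measured in the hippocampus of mice whose fathers or grandfathers had eaten a methyl donor-rich diet (MD) or a control diet (CD). They comprise 18 endothelial genes, 9 mural genes (pericytes and smooth muscle) and 5 fibroblast genes. They were chosen by name, and each was represented by the brightest of the array probes whose identifier maps to its symbol. All 32 had a probe, out of 19756 genes that could be named on the array. F0 males of strain C57BL/6J received the MD, with added l-methionine, choline, betaine, folic acid, vitamin B12 and zinc, or the CD for 6 weeks before they were mated with 129S6/SvEv females, and all offspring ate the CD. F1 mice are labelled as congenic C57BL/6J x 129S6/SvEv hybrids and F2 mice as mixed hybrids of the same strains. F2 mice descended from F1 sons of MD or CD fathers and from CD F1 females. Groups are named by diet and generation (CD F1 or MD F1, and CD F2 or MD F2). Each of the 4 groups had 6 arrays, 24 in all, and each array was hybridised with a pool of 4 mice. The labels give an age of 4 weeks, whereas the study describes adult mice.

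Brain endothelial cells form the blood-brain barrier by sealing the gaps between them with tight junctions and by moving nutrients and drugs through dedicated transporters. Mural cells wrap the endothelium: pericytes cover capillaries and help to maintain the barrier, and smooth muscle cells around arteries and arterioles contract through smooth muscle actin and myosin. Fibroblasts lie in the meninges and around larger vessels, and they make fibrillar collagens and small proteoglycans. The choroid plexus, a vascular and epithelial tissue of the ventricles that borders the hippocampus, is marked by Ttr, which encodes the transport protein transthyretin.

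The arrays were 1-color Agilent mouse arrays, and values are log2 signals that were quantile-normalized within a generation. They are levels of RNA in whole tissue, in which fewer cells of a type and less RNA per cell cannot be told apart. The median raw signal of an array lay between 167 and 318 in F1 and between 148 and 262 in F2. A measure of sex (Y-linked genes minus Xist) lay between −2.3 and 0.161 in F1. In F2 it was −7.57, −7.66 and −7.43 on CD F2 replicates 3 and 5 and MD F2 replicate 6. On the other F2 arrays it lay between 5.23 and 7.26, so the F2 pools were not alike in sex. Each generation had 3 slides of its own, every one carrying 2 CD and 2 MD arrays, so that generation and slide cannot be told apart and levels are compared only within a generation. In earlier results of these data 3 arrays stood apart (MD F1 replicate 6, MD F2 replicate 3 and CD F2 replicate 6), and values without them are given where they matter. MD F1 replicate 6 had the lowest median raw signal of its generation (167, against 201 to 318 on the other F1 arrays) and the lowest mean correlation with the other arrays (0.985, against 0.992 to 0.994). MD F2 replicate 3 and CD F2 replicate 6 had 27383 and 28000 spots well above background, against 32809 to 34661 on the other F2 arrays. Their mean correlations were 0.974 and 0.977, against 0.986 to 0.988. All 32 probes were well above background on every array, so that the endothelial, mural and fibroblast markers were measured in all 4 groups. The spot of Mfsd2a was irregular on CD F1 replicate 1 and was left out, which leaves 5 arrays for that gene in that group.

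No gene of the set differed between the diets at an FDR under 0.1, the threshold of the study, in either generation. In MD F1 against CD F1, 0 of the 32 genes were called by limma with Benjamini-Hochberg adjustment, and 0.033% of all 39429 probes were. At an unadjusted p under 0.05 there were 2 genes (6.25%), both lower in MD F1, against 14.4% of all probes. In MD F2 against CD F2, 0 of the 32 genes and 0% of the probes were called. At an unadjusted p under 0.05 there were 4 genes (12.5%), all lower in MD F2, against 5.6% of all probes. The diet groups of 0 genes were without overlap in F1 and in F2, where 1.79% and 0.365% of all probes were without overlap. The diet by generation interaction called 0 of the 32 genes (0 also at an unadjusted p under 0.05), against 0.0127% of all probes at the FDR threshold and 8.29% at the unadjusted one. Its lowest adjusted p among the 32 genes was 0.631 (limma).

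**Figure D1:**
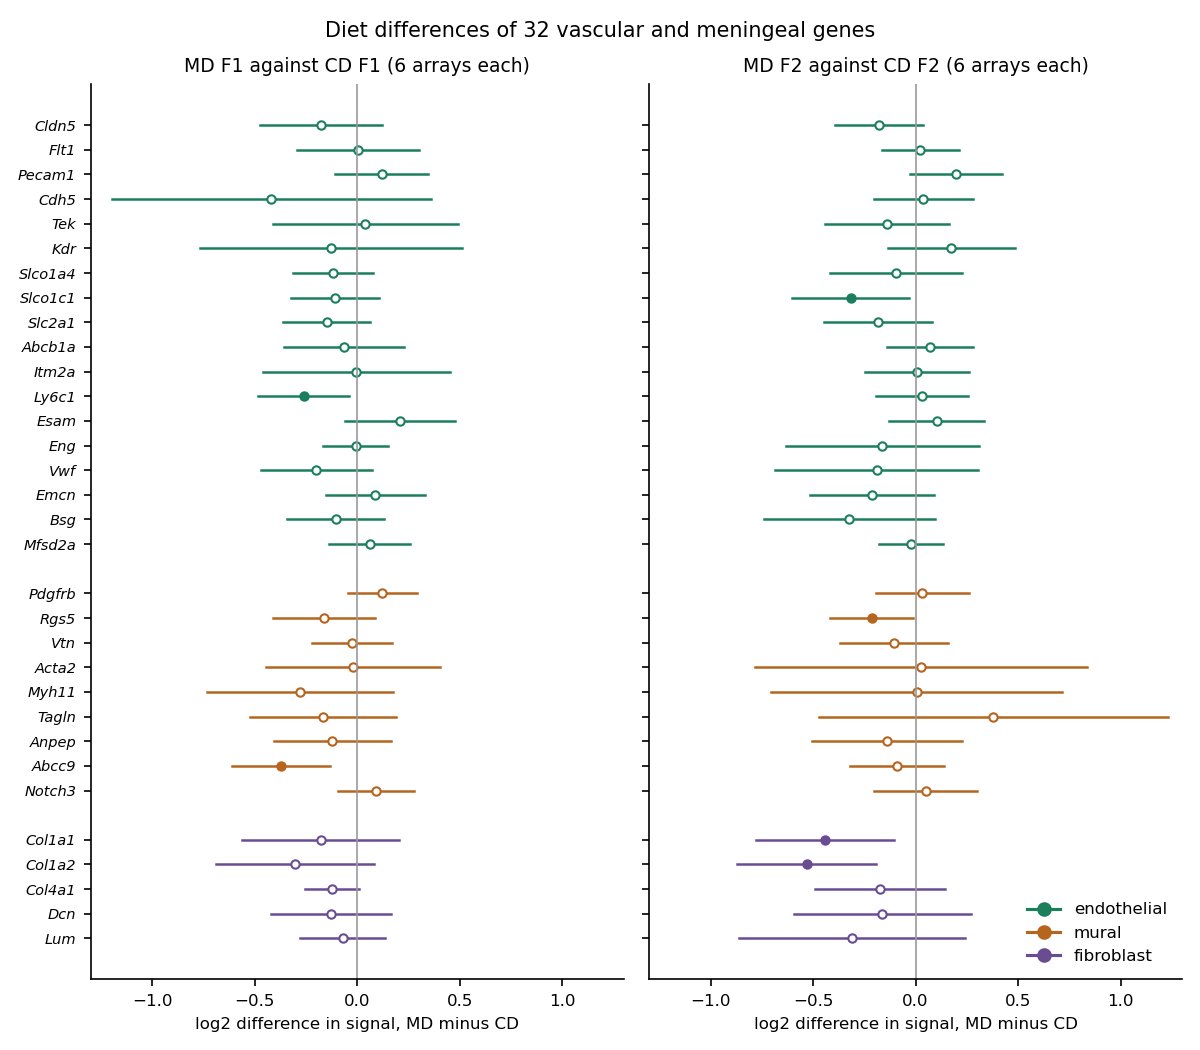
Difference in log2 signal between the diets (x axis, MD minus CD) for each of the 32 genes (y axis, endothelial in green, mural in brown, fibroblast in purple) in F1 (left) and F2 (right), with 6 arrays per group. Points are limma estimates, lines their 95% intervals, and filled points those with an unadjusted p under 0.05, which are Ly6c1 and Abcc9 in F1 and Slco1c1, Rgs5, Col1a1 and Col1a2 in F2.

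Of the 18 endothelial genes, 12 had a lower mean in MD F1 than in CD F1 and 6 a higher mean, with a median log2 difference of −0.09 (all probes, 0.01). In F2, 10 were lower and 8 higher, with a median of −0.06 (all probes, 0.01), which was −0.01 without CD F2 replicate 3. Ly6c1, a surface protein of brain endothelium, was the endothelial gene with the lowest p in F1. Its log2 signal was 13.63, 13.81 and 13.99 (lowest, median and highest array) in CD F1 and 13.17, 13.63 and 13.76 in MD F1. The ranges overlapped, with the lowest value on MD F1 replicate 6. The log2 difference was −0.26 ± 0.10 (SE), with an adjusted p of 0.296 in limma, −0.18 ± 0.07 without that array, and −0.11 ± 0.09 with a measure of sex (Y-linked genes minus Xist) as a covariate, where the unadjusted p of 0.252 in limma no longer passed 0.05. The sex measure was uneven between the F1 diet groups, at −2.3 to −1.9 in CD F1 and −2.15 to 0.161 in MD F1, highest on MD F1 replicate 6. Sex and diet therefore cannot be told apart by this covariate. The other probe of Ly6c1 differed by −0.09 ± 0.13 in F1. In F2, Ly6c1 was at 12.74, 13.14 and 13.19 in CD F2 and at 12.82, 13.09 and 13.28 in MD F2, a difference of 0.03 ± 0.10.

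Slco1c1 encodes a thyroid hormone transporter of the barrier endothelium that is also known from choroid plexus. It was at 10.80, 11.37 and 11.45 in CD F2 and at 10.75, 10.88 and 11.29 in MD F2. In CD F2, 4 arrays lay above all MD F2 arrays, and CD F2 replicates 4 and 6 lay among the MD F2 arrays. The log2 difference was −0.32 ± 0.13 (adjusted p = 0.89, limma), and the other probe of the gene gave −0.47 ± 0.21. With the Ttr signal as a covariate, the difference for Slco1c1 was −0.18 ± 0.09. In F1, Slco1c1 was at 10.97, 11.14 and 11.36 in CD F1 and at 10.78, 11.02 and 11.31 in MD F1, with a difference of −0.11 ± 0.10. The other probe differed in the opposite direction in F1, by 0.08 ± 0.13. The interaction was 0.23 ± 0.17 for the brightest probe (adjusted p = 0.761, limma). For the other probe it was 0.57 ± 0.26 (unadjusted p = 0.0392, adjusted p = 0.578, limma).

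Cldn5, the main claudin of the endothelial tight junction, was at 11.65, 12 and 12.53 in CD F1 and at 11.64, 11.99 and 12.02 in MD F1. In F2 it was at 12.72, 13.05 and 13.22 in CD F2 and at 12.58, 12.85 and 13.05 in MD F2. The log2 difference was −0.18 in F1 (95% interval −0.47 to 0.12) and −0.18 in F2 (−0.39 to 0.03), with adjusted p-values of 0.559 in F1 and 0.912 in F2 (limma). Pecam1, an adhesion molecule between endothelial cells, had values of 7.55, 7.82 and 7.95 in CD F1 and of 7.70, 7.85 and 8.21 in MD F1. In F2, Pecam1 was at 7.58, 7.86 and 8.20 in CD F2 and at 7.95, 8.09 and 8.21 in MD F2. Its mean was higher in the MD group in both generations, by 0.12 ± 0.10 in F1 and 0.20 ± 0.10 in F2, with overlapping ranges and adjusted p-values of 0.607 and 0.911 (limma).

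The other endothelial genes had differences whose 95% intervals included 0. Among receptors, the VEGF receptor gene Flt1 ranged from 13.08 to 13.94 in F1 and from 11.76 to 12.16 in F2, with differences of 0.00 ± 0.14 and 0.02 ± 0.09. The angiopoietin receptor gene Tek ranged from 6.19 to 7.49 in F1 and from 6.60 to 7.47 in F2, and Eng, a co-receptor for TGF-beta family ligands, ranged from 8.85 to 9.17 in F1 and from 9.01 to 10.15 in F2. The glucose transporter gene Slc2a1 was lower in the MD group by 0.15 ± 0.10 in F1 and by 0.18 ± 0.12 in F2, between 13.66 and 14.16 in F1 and between 12.43 and 13.28 in F2. The other 3 transport genes differed by at most 0.12 in either direction: the organic anion carrier gene Slco1a4 (10.55 to 11.05 in F1, 10.16 to 10.97 in F2), the drug efflux pump gene Abcb1a (9.88 to 10.83 in F1, 9.92 to 10.41 in F2) and the lipid transporter gene Mfsd2a (12.73 to 13.12 in F1, 12.41 to 12.73 in F2). The remaining surface and secreted markers were Vwf, the blood clotting factor of endothelial storage granules (10.98 to 11.83 in F1, 10.80 to 12.17 in F2), Esam, an adhesion molecule (11.10 to 12.05 in F1, 10.26 to 10.90 in F2), Emcn, an endothelial sialomucin (7.10 to 7.79 in F1, 7.69 to 8.65 in F2), Itm2a, a membrane protein (11.47 to 12.85 in F1, 11.76 to 12.36 in F2), and Bsg, a partner of monocarboxylate transporters that other brain cells express as well (12.10 to 12.68 in F1, 12.52 to 13.74 in F2). Esam had the largest positive difference of the endothelial genes in F1 (0.21 ± 0.12), and Bsg the largest negative difference in F2 (−0.32 ± 0.19, adjusted p = 0.916 in limma).

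**Figure D2:**
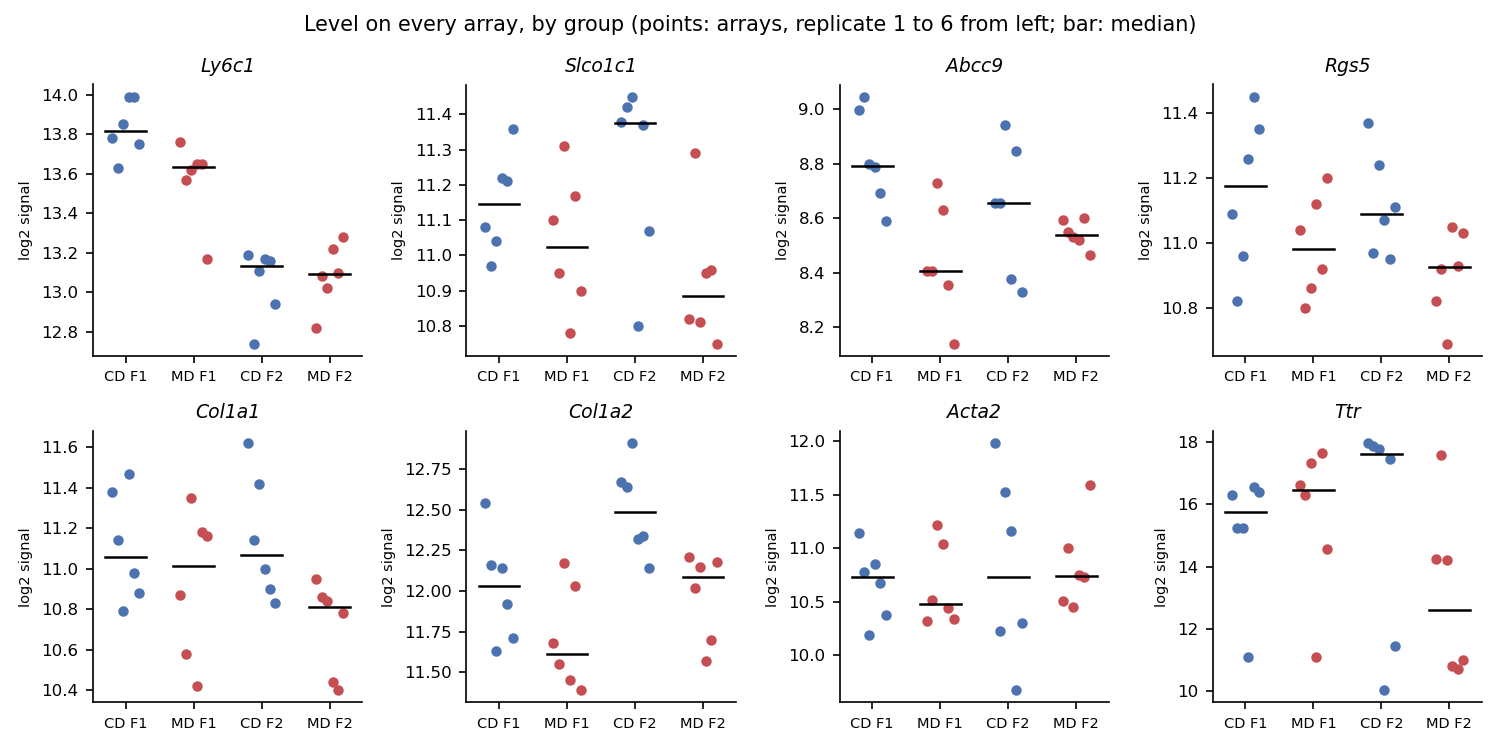
Log2 signal (y axis, a range of its own in each panel) on each of the 6 arrays of the 4 groups (x axis, CD in blue and MD in red, bars at the median) for the 6 genes with an unadjusted p under 0.05, for Acta2 and for the choroid plexus gene Ttr. The diet groups overlap in every panel, and Ttr falls into separate clusters of arrays within the groups.

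Of the 9 mural genes, 7 had a lower mean in MD F1 and 2 a higher mean (median log2 difference −0.12, all probes 0.01). In F2, 4 were lower and 5 higher (median 0.01, all probes 0.01). These medians depended on single arrays: that in F1 was −0.05 without CD F1 replicate 1 and −0.07 without MD F1 replicate 6, and that in F2 lay between −0.105 (without CD F2 replicate 5) and 0.0995 (without CD F2 replicate 1). Abcc9, which encodes the sulfonylurea receptor subunit of the potassium channel of pericytes and smooth muscle, had the lowest p of the 32 genes in F1. It was at 8.59, 8.79 and 9.04 in CD F1 and at 8.14, 8.41 and 8.73 in MD F1. In MD F1, 4 arrays lay below all CD F1 arrays, and MD F1 replicates 3 and 4 lay within the CD F1 range. The log2 difference was −0.37 ± 0.11 (adjusted p = 0.218, limma), and −0.31 ± 0.10 without MD F1 replicate 6. In F2, Abcc9 was at 8.33, 8.65 and 8.94 in CD F2 and at 8.46, 8.54 and 8.60 in MD F2, with a difference of −0.09 ± 0.11. The interaction for Abcc9 was −0.29 ± 0.15 (adjusted p = 0.644, limma), so that a difference between the generations did not pass the test.

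Rgs5, a regulator of G-protein signaling that marks pericytes, was at 10.95, 11.09 and 11.37 in CD F2 and at 10.69, 10.93 and 11.05 in MD F2. The log2 difference was −0.21 ± 0.09 (adjusted p = 0.89, limma), with overlapping ranges, and −0.17 ± 0.10 without MD F2 replicate 3 and CD F2 replicate 6. In F1, Rgs5 was at 10.82, 11.17 and 11.45 in CD F1 and at 10.80, 10.98 and 11.20 in MD F1 (difference −0.16 ± 0.11). Pdgfrb, the receptor through which endothelial PDGF-B recruits pericytes, was at 10.80, 10.91 and 11.07 in CD F1 and at 10.83, 11.08 and 11.19 in MD F1. In F2, Pdgfrb was at 9.86, 10.20 and 10.51 in CD F2 and at 10.02, 10.25 and 10.36 in MD F2. Its log2 difference was 0.12 (95% interval −0.05 to 0.29) in F1 and 0.03 (−0.19 to 0.26) in F2, with adjusted p-values of 0.482 and 0.995 (limma). The other pericyte-related genes were Vtn, which encodes vitronectin (12.39 to 12.83 in F1, 12.63 to 13.27 in F2), Notch3, the Notch receptor of mural cells (9.80 to 10.26 in F1, 9.18 to 9.75 in F2), and Anpep, an aminopeptidase of pericytes that fibroblasts also express (8.91 to 9.69 in F1, 8.62 to 9.65 in F2), and they differed between the diets by at most 0.14 in either direction.

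The smooth muscle genes had diet differences whose 95% intervals included 0, and within CD F2 they had the widest ranges of the 32 genes. Acta2, which encodes smooth muscle actin, was at 10.19, 10.73 and 11.14 in CD F1 and at 10.32, 10.48 and 11.22 in MD F1. In F2, Acta2 was at 9.68, 10.73 and 11.98 in CD F2 and at 10.45, 10.74 and 11.59 in MD F2. Its log2 difference was −0.02 (95% interval −0.45 to 0.40) in F1 and 0.03 (−0.78 to 0.84) in F2, with adjusted p-values of 0.967 and 0.999 (limma). Within CD F2 the highest array exceeded the lowest by 4.94-fold for Acta2, by 4.5-fold for Myh11, the smooth muscle myosin heavy chain gene, and by 4.26-fold for Tagln, which encodes the actin-binding protein transgelin. Myh11 ranged from 6.87 to 8.10 in F1 and from 6.45 to 8.62 in F2. Tagln ranged from 13.02 to 14.28 in F1 and from 12.23 to 14.62 in F2, with a difference of 0.38 ± 0.39 in F2. Arrays were pools of 4 mice, and p-values measure the spread between these pools.

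Acta2 and Myh11 varied together over the arrays, so the sequence before the start of Acta2 is shown, with that of Col1a2, whose level varied with Anpep. The RefSeq promoter table (build GRCm38.p6) held 21 of the 32 genes. Myh11 was not among them, so no sequence shared with Acta2 could be searched for. Capitals mark CArG boxes, the target sequence of serum response factor, with at most 1 base other than A or T in the core, and the letters CCAAT, each searched on both strands.
Acta2, chr19:34255374-34255623, minus strand, 250 bases upstream of the start: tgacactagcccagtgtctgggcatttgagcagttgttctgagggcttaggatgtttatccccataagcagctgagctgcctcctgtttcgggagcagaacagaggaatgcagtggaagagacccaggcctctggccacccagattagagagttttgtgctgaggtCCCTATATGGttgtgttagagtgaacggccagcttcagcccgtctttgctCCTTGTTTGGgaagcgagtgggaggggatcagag
Col1a2, chr6:4505368-4505617, plus strand, 250 bases upstream of the start: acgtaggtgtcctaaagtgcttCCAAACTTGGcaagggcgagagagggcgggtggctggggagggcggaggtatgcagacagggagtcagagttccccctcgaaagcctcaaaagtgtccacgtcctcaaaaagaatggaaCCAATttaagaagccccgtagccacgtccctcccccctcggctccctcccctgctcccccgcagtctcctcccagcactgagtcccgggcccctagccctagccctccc
Acta2 held 2 CArG boxes, 84 and 34 bases upstream of the start, and 0 CCAAT. Col1a2 held 1 CArG box 228 bases and 1 CCAAT 109 bases upstream. Of all 32851 promoters in the table, 8.59% held a CArG box by this rule in the same window, 0.67% held 2 or more, and 33.8% held CCAAT. These matches describe letters and not binding.

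All 5 fibroblast genes had a lower mean in the MD group in both generations, as did 48.5% of all probes in F1 and 45.7% in F2. The median log2 differences of the fibroblast genes were −0.13 in F1 and −0.31 in F2 (all probes, 0.01 and 0.01). The F2 median was −0.179 without CD F2 replicate 3, −0.472 without CD F2 replicate 4 and −0.147 with Ttr as a covariate. With the sex measure as a covariate it was −0.203. None was called. Col1a1 and Col1a2 encode the 2 chains of type I collagen, the main fibrillar collagen of meninges and adventitia. Col1a2 was at 12.14, 12.49 and 12.91 in CD F2 and at 11.57, 12.09 and 12.21 in MD F2. In CD F2, 5 arrays lay above all MD F2 arrays, and the lowest CD F2 array, replicate 6, lay among them. The log2 difference was −0.53 ± 0.16 (adjusted p = 0.89, limma). Col1a1 was at 10.83, 11.07 and 11.62 in CD F2 and at 10.40, 10.81 and 10.95 in MD F2, with a difference of −0.44 ± 0.15 (adjusted p = 0.89, limma). Without MD F2 replicate 3 and CD F2 replicate 6, the differences were −0.64 ± 0.16 for Col1a2 and −0.53 ± 0.17 for Col1a1. With the code lh or rh of the F2 labels as a covariate they were −0.53 ± 0.11 for Col1a2 (adjusted p = 0.389, limma) and −0.44 ± 0.10 for Col1a1 (adjusted p = 0.434, limma). In F1, Col1a2 was at 11.63, 12.03 and 12.54 in CD F1 and at 11.39, 11.62 and 12.17 in MD F1 (difference −0.30 ± 0.18), and Col1a1 was at 10.79, 11.06 and 11.47 in CD F1 and at 10.42, 11.02 and 11.35 in MD F1 (difference −0.18 ± 0.18).

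Dcn, which encodes the proteoglycan decorin, was at 13.85, 14.02 and 14.27 in CD F1 and at 13.28, 14 and 14.06 in MD F1. In F2, Dcn was at 12.90, 13.56 and 13.86 in CD F2 and at 12.69, 13.41 and 13.46 in MD F2. The differences were −0.13 (95% interval −0.42 to 0.16) and −0.16 (−0.59 to 0.27). Lum, which encodes the related proteoglycan lumican, ranged from 8.91 to 9.52 in F1 and from 8.26 to 9.75 in F2. Col4a1, a collagen of the basement membrane that endothelial and mural cells also make, ranged from 10.74 to 11.06 in F1 and from 10.22 to 11.21 in F2, with a difference of −0.12 ± 0.06 in F1. The interactions were 0.26 ± 0.24 for Col1a2 and 0.29 ± 0.24 for Col1a1, with adjusted p-values of 0.831 and 0.796 (limma).

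Markers of other tissues also had different means in the F2 diet groups. The summed signal of 12 choroid plexus genes lay between 3140 and 289000 in CD F2 and between 3600 and 223000 in MD F2, and all 12 genes had a lower mean in MD F2 (median log2 difference −2.11, 0 called and 0 at an unadjusted p under 0.05 in limma). The 6 ependymal genes were also lower in MD F2, 5 of them (83.3%, beside 5.6% of all probes) at an unadjusted p under 0.05, with sums of 5410 to 9980 in CD F2 and 4290 to 7230 in MD F2. In F1 these lists were higher in the MD group: all 12 choroid plexus genes (median 0.51, 0 at an unadjusted p under 0.05) and all 6 ependymal genes (5, or 83.3%, at an unadjusted p under 0.05, beside 14.4% of all probes). The interaction called 1 of the 6 ependymal genes, Ccdc153, with 1.11 ± 0.19 (adjusted p = 0.0661, limma). For the part of these tissues in the F2 differences of Slco1c1, Col1a1 and Col1a2, only a fit with Ttr as a covariate was run. It left Col1a2 at −0.41 ± 0.14, Col1a1 at −0.32 ± 0.14 and Slco1c1 at −0.18 ± 0.09, with the lowest adjusted p of the 32 genes at 1 (limma). Ttr was uneven between the diets in F2: its highest cluster of arrays held 4 CD F2 and 1 MD F2 arrays. Tissue and diet therefore cannot be told apart by this covariate. Sums of the 7 neuronal genes were between 220000 and 246000 in CD F2 and between 217000 and 252000 in MD F2.

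Ttr spread over a wide range within every group: 43.5-fold in CD F1 (log2 11.10 to 16.55), 93.8-fold in MD F1 (11.11 to 17.66), 242-fold in CD F2 (10.04 to 17.96) and 116-fold in MD F2 (10.73 to 17.59). The arrays fell into separate clusters, with gaps of over 2 log2 units. In F1, CD F1 replicate 4 and MD F1 replicate 4 were at 11.10 and 11.11, and the other 10 arrays were at 14.58 to 17.66. In F2, 5 arrays (CD F2 replicates 4 and 6 and MD F2 replicates 4, 5 and 6) were at 10.04 to 11.46, 2 arrays (MD F2 replicates 1 and 3) were near 14.2, and 5 arrays (CD F2 replicates 1, 2, 3 and 5 and MD F2 replicate 2) were at 17.46 to 17.96. No F2 cluster held 6 arrays, so no correlation with Ttr was computed in F2. Slco1c1 was at 11.29 to 11.45 on the 5 F2 arrays with the highest Ttr and at 10.75 to 11.07 on the other 7, which describes the arrays without a test.

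In the F1 cluster of 10 arrays, 0 of the 32 genes correlated with Ttr at an adjusted p under 0.05 (permutation test on deviations from the diet group mean, Benjamini-Hochberg adjustment over the 32 genes). The lowest adjusted p was 0.134 for r (Slco1c1 and Tagln) and 0.0986 for rho (Slco1c1). At an unadjusted permutation p under 0.05 there were 3 genes, and the share of all genes at such a p was not counted. Tagln had r = 0.851 (permutation p = 0.00835, rho = 0.77), Slco1c1 r = 0.784 (permutation p = 0.00778, rho = 0.891) and Ly6c1 r = 0.766 (permutation p = 0.0428, rho = 0.612). Without the 2 arrays farthest from the median of Ttr, MD F1 replicates 5 and 6, r was 0.502 for Tagln, 0.831 for Slco1c1 and 0.441 for Ly6c1. Kdr (r = 0.793) and Cdh5 (r = 0.79) did not reach such a p, and their r was −0.01 and 0.299 without these 2 arrays. The most negative r was that of Flt1 (−0.68), which was −0.246 without them. By class, r was above 0 for 5 of 5 fibroblast genes (median 0.521), 7 of 9 mural genes (0.198) and 9 of 18 endothelial genes (−0.06), beside a median of −0.144 over 15887 genes. This order rested on MD F1 replicates 5 and 6: without them the medians were 0.146 for the fibroblast genes (5 of 5 above 0), 0.387 for the mural genes (8 of 9), 0.509 for the endothelial genes (14 of 18) and 0.04 over the 15887 genes. Without MD F1 replicate 6 alone, the median over the 32 genes moved from 0.174 to 0.409. The correlations of several genes with Ttr share the same 10 arrays and are not independent.

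Members of a class varied together only in part. Over the 12 arrays of a generation, as deviations from the diet group mean, the median Pearson r of pairs was 0.193 within the endothelial genes, 0.301 within the mural genes and 0.352 within the fibroblast genes in F1. In F2 these medians were 0.158, 0.493 and 0.15. Pairs of all measured genes had a median r of 0.02 in F1 and 0.00 in F2. The sex measure was not taken out of the deviations. Of 992 pairs tested (496 in each generation), 4 passed a permutation test of r at an adjusted p under 0.05, and 3 passed that of rho. Acta2 and Myh11 passed by r in both generations. In F1 this pair had r = 0.872 (permutation p = 0.00013, adjusted p = 0.0322) and rho = 0.839 (permutation p = 0.00046, adjusted p = 0.0562). In F2 it had r = 0.977 (permutation p = 1e-05, the smallest that the permutations can give, adjusted p = 0.00992) and rho = 0.979 (permutation p = 4e-05, adjusted p = 0.0397). The other pairs that passed by rho were Vwf with Col1a2 in F1 (rho = 0.93, adjusted permutation p = 0.0463; r = 0.885, adjusted permutation p = 0.0633) and Anpep with Col1a1 in F2 (rho = 0.979, adjusted permutation p = 0.0463; r = 0.92, adjusted permutation p = 0.0633). Without the 2 arrays farthest from the median of Acta2, r for this pair was 0.814 in F1 and 0.953 in F2.

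Tagln, the other smooth muscle gene, did not pass the test with Acta2: r was 0.05 in F1 and 0.487 in F2 (rho 0.01 and 0.427; permutation p = 0.882 and 0.118), and in F2 r was 0.01 without the 2 arrays farthest from the median of Acta2 and 0.663 (rho 0.576) without the arrays that stood apart. In F2, Tagln had its highest r with Eng (r = 0.896, rho = 0.846, permutation p = 0.00132, adjusted p = 0.0704) and Bsg (r = 0.804, rho = 0.727, permutation p = 0.00444, adjusted p = 0.13). Eng and Bsg had r = 0.935 in F2 (rho = 0.923; permutation p = 7e-05; adjusted p = 0.0298) and r = 0.409 in F1 (rho = 0.469, adjusted p = 0.547). Anpep and Col1a2 had r = 0.951 in F2 (rho = 0.888; permutation p = 9e-05; adjusted p = 0.0298) and r = 0.769 in F1 (rho = 0.601; adjusted p = 0.194). The 2 collagen I genes had r = 0.873 in F2 (permutation p = 0.00136, adjusted p = 0.0704) and 0.738 in F1 (adjusted p = 0.238), whereas the proteoglycan genes Dcn and Lum had r = 0.05 in F2 and 0.192 in F1. With the 3 arrays that stood apart left out, 0 of the 992 pairs passed at an adjusted p under 0.05, and the r of Acta2 and Myh11 was 0.906 in F1 (adjusted p = 0.0794) and 0.976 in F2 (adjusted p = 0.0794, permutation test).

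**Figure D3:**
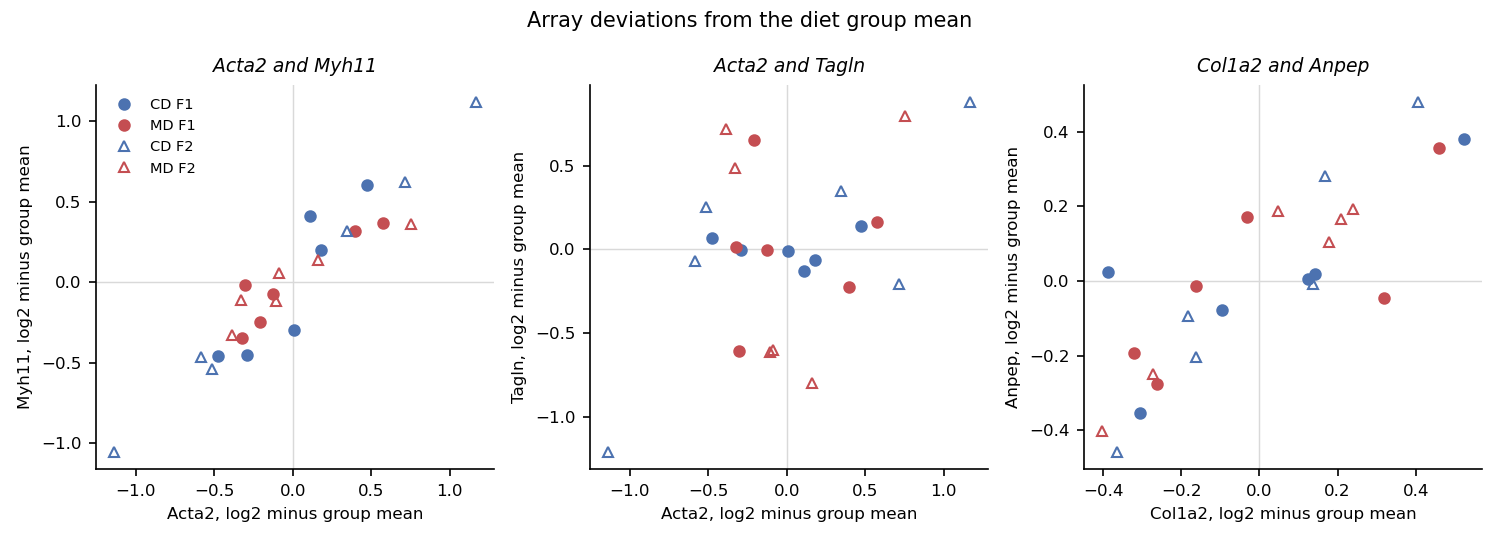
Deviation of each array from its diet group mean on the log2 scale for 3 pairs of genes (axes as labelled; circles F1, triangles F2, CD in blue, MD in red). Acta2 and Myh11 lie along a line in both generations (r 0.872 and 0.977), Acta2 and Tagln are more scattered (r 0.05 and 0.487), and Col1a2 and Anpep have r 0.769 in F1 and 0.951 in F2.

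**Figure D4:**
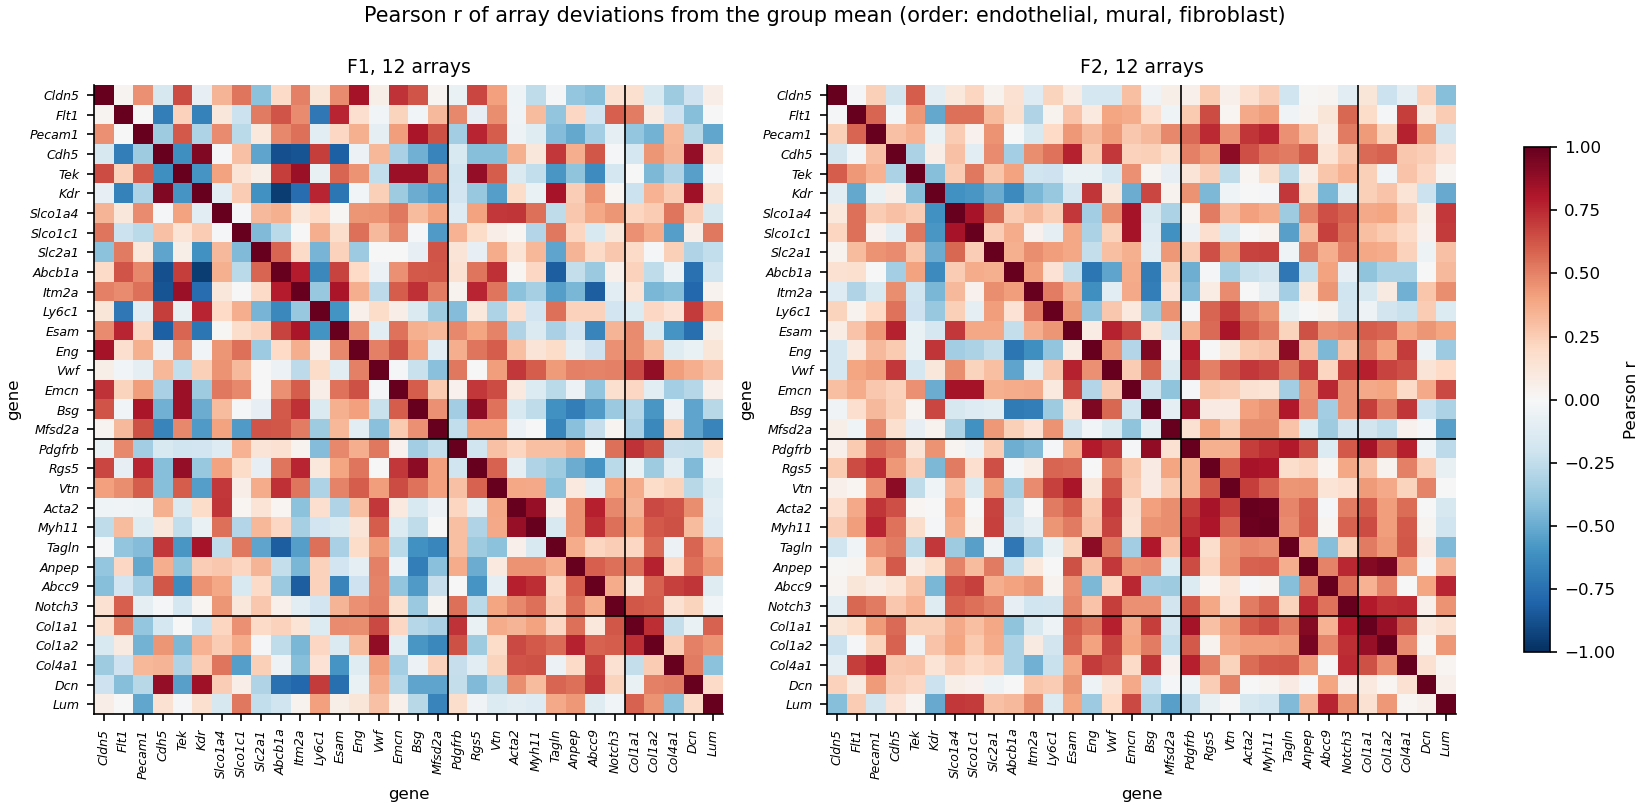
Pearson r between the array deviations of all pairs of the 32 genes (both axes, in the order endothelial, mural, fibroblast, separated by lines) over the 12 arrays of F1 (left) and F2 (right), red above 0 and blue below 0. The pair Acta2 and Myh11 is dark red in both maps, and Kdr and Abcb1a are dark blue in F1 (r −0.952).

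The most negative pair in F1, Kdr with Abcb1a (r = −0.952, rho = −0.706, permutation p = 0.00465, adjusted p = 0.132), had r = −0.611 without the 2 arrays farthest from the median of Kdr. Kdr, the main VEGF receptor of endothelium, was at 11.88 to 12.26 in CD F1 and at 12.07 to 12.60 on 5 arrays of MD F1, but at 10.39 on MD F1 replicate 6. The other probe of Kdr was at 9.73 on that array, within the range of 9.61 to 9.99 of the other MD F1 arrays. Cdh5, the cadherin of endothelial junctions, was at 9.05 to 9.29 on 5 arrays of MD F1 and at 6.84 on replicate 6. The log2 difference of Cdh5 in F1 was −0.42 ± 0.36 with this array and −0.04 ± 0.09 without it, and that of Kdr was −0.13 ± 0.29 with it and 0.17 ± 0.10 without it. In the opposite direction, Flt1 (13.94, against 13.14 to 13.39), Itm2a (12.85, against 11.52 to 11.93) and Abcb1a (10.83, against 9.88 to 10.21) were highest on this array. MD F1 replicate 6 was the lowest or highest array of its group for 20 of the 32 genes (62.5%) and for 69.5% of 16067 measured genes. In F2, Cdh5 ranged from 8.57 to 9.22 and Kdr from 11.16 to 12.02. The diet difference of the other Kdr probe was −0.233 ± 0.115 in F1. In F2 it was −0.21 ± 0.16, whereas the brightest probe gave 0.17 ± 0.14. Over the arrays the probes of Kdr correlated at r = 0.125 in F1 and −0.284 in F2. The Kdr differences and its r with Abcb1a are therefore those of the brightest probe only.

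**Figure D5:**
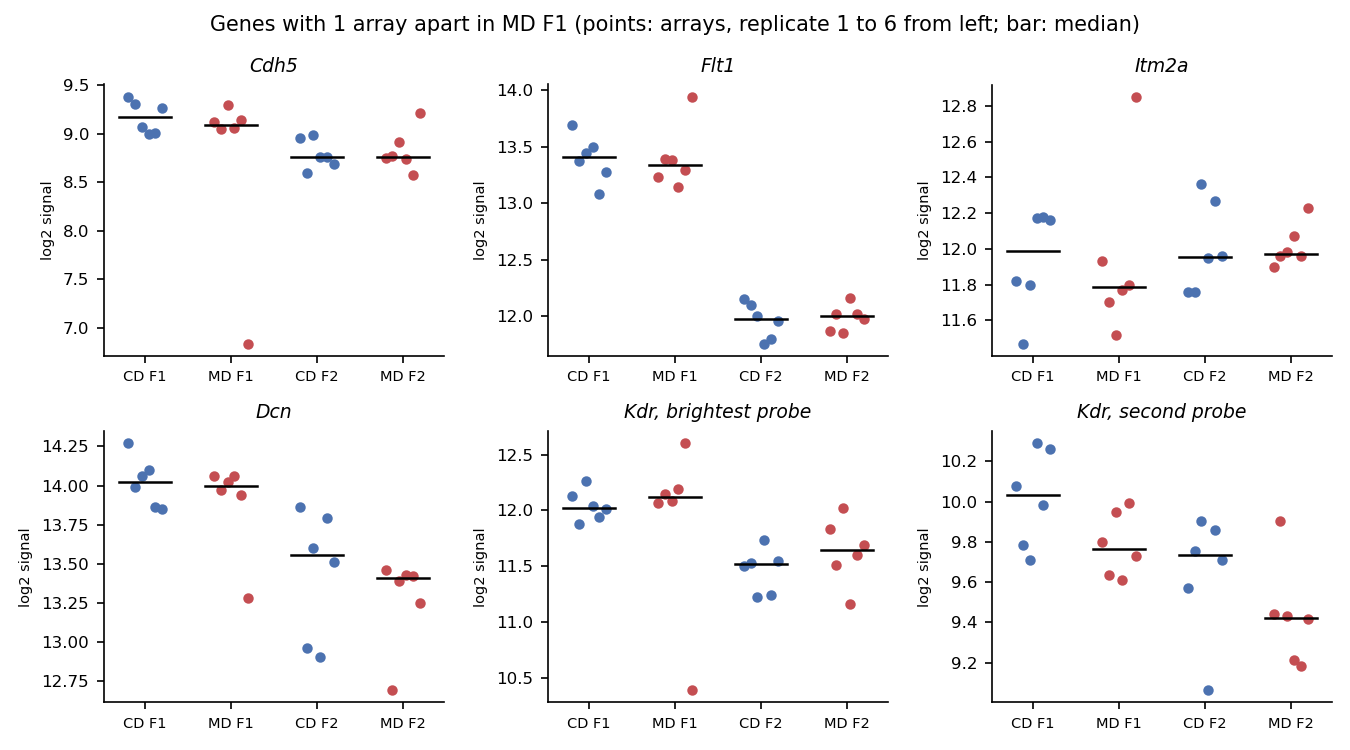
Log2 signal (y axis, a range of its own in each panel) on each array of the 4 groups (x axis, CD in blue, MD in red, bars at the median) for genes on which MD F1 replicate 6 lay apart, and for the other Kdr probe. Cdh5 was at 6.84 and the brightest Kdr probe at 10.39 on that array, whereas the other Kdr probe was at 9.73, among the other arrays.

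Genes of pathways that act on these cells were called in neither generation by limma. Of 11 tight junction genes, 0 were called by limma in F1 or F2, and 0 in F1 and 3 in F2 (27.3%) had an unadjusted p under 0.05, beside 14.4% of all probes in F1 and 5.6% in F2. The named ones were the scaffold gene Tjp1 (−0.12 ± 0.07) and the cingulin-like gene Cgnl1 (−0.41 ± 0.27, well above background on 9 of 12 arrays) in F1, and the junctional adhesion gene F11r (−0.57 ± 0.19) and the tricellulin gene Marveld2 (−0.56 ± 0.19) in F2. Of 20 genes of barrier-inducing Wnt signaling, 0 were called, and 3 in F1 (15%) and 4 in F2 (20%) had an unadjusted p under 0.05. The transcription factor gene Tcf7 (−0.33 ± 0.09, adjusted p = 0.207 in limma) and the ligand gene Wnt7b (−0.15 ± 0.07) had the lowest p in F1, and the receptor gene Fzd4 differed by −0.48 ± 0.15 in F2 (adjusted p = 0.89 in limma). Of 26 genes of VEGF, angiopoietin and Notch signaling, 0 were called, and 5 in F1 (19.2%) and 3 in F2 (11.5%) had an unadjusted p under 0.05. The phosphatase gene Ptprb (−0.43 ± 0.13, adjusted p = 0.221 in limma) and the receptor gene Notch4 (−0.21 ± 0.07) had the lowest p in F1. In F2 these were the Notch target gene Hey2 (−0.40 ± 0.13) and the ligand gene Bmp6 (−0.90 ± 0.31).

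Further marker lists of the same cells gave 0 calls in limma, and at an unadjusted p under 0.05 the other mural and the other fibroblast genes each gave 0 in F1 and 1 in F2 (7.14% and 5%, beside 5.6% of all probes). Among 14 other mural genes, Higd1b (0.20 ± 0.10) and the myosin light chain kinase gene Mylk (−0.24 ± 0.18) had the lowest p in F1, and the adhesion gene Mcam (−0.30 ± 0.11) and Higd1b (0.20 ± 0.11) in F2. Among 20 other meningeal and perivascular fibroblast genes, 14 had a higher mean in MD F1 and 16 a lower mean in MD F2, with medians of 0.03 and −0.13. Igfbp2, which encodes an IGF-binding protein, differed by 0.33 ± 0.27 in F1 and by −0.93 ± 0.40 in F2, Nupr1 by 0.14 ± 0.10 in F1, and Aebp1 by −0.38 ± 0.20 in F2. All 11 basement membrane genes had a lower mean in MD F2 (median −0.22, 0 called, and 4 or 36.4% at an unadjusted p under 0.05), where 45.7% of all probes were lower and 5.6% had such a p, while 7 had a higher mean in MD F1. Those with the lowest p were the nidogen gene Nid1 (−0.26 ± 0.09) and the laminin gene Lama5 (0.23 ± 0.11) in F1, and the laminin gene Lamb1 (−0.22 ± 0.09) and the collagen XVIII gene Col18a1 (−0.69 ± 0.28) in F2. The lowest adjusted p of any gene named from these lists was 0.207 in F1 and 0.89 in F2 (limma).

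The lists of other brain cells were not called in F1 or F2 (limma). In F1, 7 of 7 astrocyte, 6 of 7 neuronal, 5 of 6 oligodendrocyte and 7 of 8 hippocampal field genes had a lower mean in the MD group. Of all probes, 48.5% did. The median log2 differences of these lists were −0.108, −0.145, −0.147 and −0.146. At an unadjusted p under 0.05 there were 28.6%, 14.3%, 33.3% and 25% of them, beside 14.4% of all probes. In F2, 3 of 7, 5 of 7, 5 of 6 and 5 of 8 were lower, beside 45.7% of all probes. At such a p there were 0%, 0%, 0% and 12.5%, beside 5.6% of all probes. Summed signals of 10 microglia and perivascular macrophage genes lay between 25500 and 28200 in CD F1, 24700 and 29300 in MD F1, 21600 and 23500 in CD F2 and 20100 and 22400 in MD F2. The sums of the 18 endothelial genes lay between 74000 and 82800 in CD F1, 70400 and 84000 in MD F1, 57000 and 70900 in CD F2 and 55600 and 60700 in MD F2. The sums of the 9 mural genes lay between 26500 and 32300 in CD F1, 23300 and 33100 in MD F1, 18300 and 40700 in CD F2 and 22300 and 43300 in MD F2. The sums of the 5 fibroblast genes lay between 22400 and 31100 in CD F1, 17200 and 26200 in MD F1, 16600 and 27300 in CD F2 and 14500 and 20000 in MD F2. The ranges of the diet groups overlapped for each of the 3 classes. Red blood cell genes, a sign of blood left in the tissue, summed to between 56400 and 530000 in CD F2 and between 61200 and 177000 in MD F2, with ranges in F1 of 85200 to 309000 in CD F1 and 52500 to 294000 in MD F1, and their part in the vascular values was not tested.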

How the data were processed

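Hippocampal RNA was measured on 24 arrays (6 per group, each a pool of 4 mice). Groups and replicate numbers follow the labels. The authors deposited, per array, the output of Agilent Feature Extraction (version 10.7.3.1 in the file headers, protocol GE1_107_Sep09), whose processed signal is a background-corrected linear intensity, not scaled between arrays. Their processed intensity table of the same arrays, quantile-normalized within a generation, was used as an alternative.

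Irregular spots were left out (1939 in F1, 2097 in F2). Log2 spot values were quantile-normalized within a generation (all 24 arrays for the interaction) and averaged per probe. Limma 3.58.1 in R 4.3.3 fitted group means, with Benjamini-Hochberg adjustment over all 39429 probes (39423 in F2 and the interaction) and calls at an FDR under 0.1. Probes were named through the RefSeq gene table (26062 of 39429 probes). The number of arrays limits the precision. The p-values measure the spread between pools, which the labels do not trace to separate litters.

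Correlations used deviations from group means and 100000 permutations of the arrays within groups. The correlation with Ttr was planned over 12 arrays, but Ttr fell into clusters, so that it was computed in the F1 cluster of 10 arrays. Promoter sequences are RefSeq's (GRCm38.p6). The fit and the permutation test were tested on simulated data. The 32 genes and all lists were chosen with earlier results of these data known. Named in full were genes with an unadjusted p under 0.05, those without overlap of the diet groups, and Cldn5, Pecam1, Pdgfrb, Acta2, Col1a1 and Dcn, and of each further pathway list the 2 genes with the lowest p in F1 and in F2. A gene that this rule names is not reported here. Ccdc153, the other probes of Ly6c1, Kdr and Slco1c1, and the pairs of genes were named after their values were seen. Alternatives covered the scaling, background, filters, probes, blocks, covariates, array weights and leaving out arrays. Normexp correction used the median spot signal.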

Additional observations from a re-analysis of the deposited data

Results flagged for a closer look

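Single arrays lay far from the other 5 of their group for 14 of the 128 combinations of a vascular gene and a group, by the gap between the array and its nearest neighbour relative to the range of the group (Dixon's criterion). By its nominal level the criterion flags about 1 in 20 groups. The share of all measured genes that it flags was not counted, and the combinations share arrays. The count of 14 is therefore not a result about the vascular genes. MD F1 replicate 6 was the lowest or highest array of its group for 62.5% of the 32 genes and for 69.5% of all measured genes. Of the 14, 8 were in MD F1 and 7 of these were on MD F1 replicate 6, where the log2 signal was 6.84 for Cdh5, 10.39 for Kdr, 13.17 for Ly6c1, 13.28 for Dcn, 13.94 for Flt1, 12.85 for Itm2a and 10.83 for Abcb1a. Dcn was at 13.94 to 14.06 and Ly6c1 at 13.57 to 13.76 on the other MD F1 arrays. This array also had the lowest median raw signal of the F1 arrays (167, against 201 to 318) and the highest value of the sex measure, Y-linked genes minus Xist (0.161, against −2.3 to −0.783). The part of these differences in the levels was not tested beyond the fits without the array and with the sex measure as a covariate, in which Cdh5 differed between the diets in F1 by −0.04 and 0.25 and Kdr by 0.17 and 0.40.

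The other arrays that lay apart were MD F1 replicate 4 for Col4a1 (10.98), CD F1 replicate 3 for Abcb1a (10.06), CD F1 replicate 4 for Lum (9.52), CD F2 replicate 2 for Cldn5 (12.72), MD F2 replicate 2 for Dcn (12.69), and MD F2 replicate 6 for Vwf (11.79) and Vtn (13.27). Among the further genes named, MD F1 replicate 6 lay apart for F11r (10.97), Hey2 (7.22) and Mylk (6.65), MD F1 replicate 5 for Tjp1 (11.74), MD F2 replicate 2 for Igfbp2 (13.62) and MD F2 replicate 6 for Nupr1 (10.04). Ttr was at 11.10 on CD F1 replicate 4, against 15.23 to 16.55 on the other CD F1 arrays. The diet difference of the ependymal gene Ccdc153 in F1 minus that in F2 was 1.11 on the log2 scale (adjusted p = 0.0661 in limma), with 0.48 ± 0.08 in F1 and −0.63 ± 0.17 in F2.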

How the results depend on the processing

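The count of called genes stayed at 0 of 32 in F1, F2 and the interaction under every alternative run, with the exception of F1 without scaling between arrays, where 7 were called. Without scaling, the median of all probes moved to −0.28 in F1 and −0.234 in the interaction, so lower values there were not particular to these genes. The share of all probes that passed without scaling was not counted. The counts of genes without scaling are therefore not a result about the 32 genes. At an unadjusted p under 0.05, the count in F1 (2 genes) was 16 without scaling, 1 with the mean over the probes of a gene, 4 without MD F1 replicate 6, and 1 to 4 when single arrays were left out (4 without MD F1 replicate 4 or 6, 1 without CD F1 replicate 4 or 5). In F2 (4 genes) it was 1 without scaling, 2 with Ttr as a covariate, 2 without the 2 arrays that stood apart, and 2 to 6 when single arrays were left out, with 2 without MD F2 replicate 1 or replicate 3. In the interaction (0 genes) it was 1 with normexp correction, 2 with the sex measure, 1 with Ttr, 3 with array weights and 0 to 2 when single arrays were left out (2 without CD F2 replicate 4). The share of all probes at such a p was not counted under these alternatives. Shifts in the counts at an unadjusted p are therefore not a result about the 32 genes. Genes with diet groups without overlap numbered 1 in F1 without scaling. Without scaling, the median log2 differences of the endothelial, mural and fibroblast genes were −0.333, −0.382 and −0.386 in F1 and −0.217, −0.213 and −0.0147 in the interaction. Abcc9 (−0.70) and Ly6c1 (−0.47) were among the 7 called in F1 without scaling. The mural median in F1 was 0.0364 after adjusting for the sex measure, which was uneven between the F1 diet groups. When single arrays were left out, the class medians in F1 lay between −0.114 and −0.0466 (endothelial), −0.156 and −0.0455 (mural) and −0.163 and −0.0974 (fibroblast), and in F2 between −0.0909 and −0.0109, −0.105 and 0.0995, and −0.472 and −0.179. The 6 genes with an unadjusted p under 0.05 kept the sign of their difference under all alternatives run. They were chosen by their p on these same arrays, so the stable sign is no support for them. Genes without such a p also kept their sign, among them Cldn5 and Slc2a1 in F1 and in F2. The count of correlated pairs (4) was 36 with group and slide means removed, whose residuals have fewer degrees of freedom than the permutation assumes, and 0 without the 3 arrays that stood apart. The count for Ttr in F1 was 0 throughout, the pool of all 12 arrays included, and F2 gave no value. Apart from scaling, the cause of these shifts was not tested. Replicate numbers recur in both diet groups. The deviations of same-numbered arrays correlated at −0.05 to 0.21 in F1 and −0.17 to 0.19 in F2. Arrays of unlike number were not correlated for comparison, so a pairing by number was not tested. With the replicate block, 0 genes were called in each comparison, Abcc9 differed by −0.37 ± 0.10 in F1 and Col1a2 by −0.53 ± 0.12 in F2. Arrays have no counts, and 6 per group limit the precision: the 95% interval of Acta2 in F2 reached from −0.78 to 0.84.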
